A study of Mus musculus with 12 samples.

Results

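Genes that make the sugar donors of hyaluronan were followed in mural granulosa cells (MGCs, which line the follicle wall) and in cumulus cells (which surround the oocyte). There were 9 of them, Gfpt1, Gfpt2, Gnpnat1, Pgm3, Uap1, Nagk, Ugp2, Ugdh and Ogt. They were chosen by symbol from the known pathway, with earlier results of these data known. All were found among the 26382 genes listed in both tables of the series. The 12 libraries are bulk RNA-seq of MGCs and cumulus cells from mice at 2 h post-hCG, with 3 libraries in each of 4 groups. The libraries titled Control are written here as WT. WT mice are described as bought C57/BL6, and no strain is stated in the titles or for the knockout mice. The other group, labelled Sphk1/2 knockout and written here as Sphk1/2gc-/-, is described as Sphk1-/- in every cell, with Sphk2 fl/fl and Fshr-Cre, so that Sphk2 is lost where the Fshr promoter drives Cre, in granulosa cells. Immature eCG-primed females were used throughout, so priming and hCG are shared by all groups, and no group without hCG was analysed here. The number of animals behind a library is not stated, so p-values measure the spread between libraries, which may be technical. In bulk RNA, fewer cells of a type and less RNA per cell cannot be told apart.

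UDP-GlcNAc and UDP-glucuronic acid are the alternating building blocks of hyaluronan, the polymer that swells the cumulus matrix before ovulation. The hexosamine route makes UDP-GlcNAc from fructose-6-phosphate and glutamine: Gfpt1 or Gfpt2 carries out the rate-limiting amination, Gnpnat1 acetylates, Pgm3 moves the phosphate and Uap1 adds the nucleotide, while Nagk returns salvaged GlcNAc to the route. Ugp2 makes UDP-glucose, Ugdh oxidises it to UDP-glucuronic acid, and Ogt spends UDP-GlcNAc on nuclear and cytosolic proteins.

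The values deposited are FPKM, fragment counts scaled for exon length and library size, in 1 table per cell type. Each library held 16100365 to 19761605 reads as recovered from the values. The 9 genes were covered by 112 reads at the least (Nagk) and 18151 at the most (Gfpt2). Differences were tested with limma on log2(FPKM + 1) over every gene whose group mean reached 0.5 FPKM in any group compared, and a gene was called where its p, adjusted by Benjamini-Hochberg, was 0.05 or less. All log2 values below are on this scale, on which low transcripts show smaller changes than their FPKM do.

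The labels were checked against the targeted genes. Sphk1 had 132, 151 and 37 reads in the WT MGC libraries 1 to 3 and 35, 45 and 9 reads in the Sphk1/2gc-/- MGC libraries, with the groups overlapping. In cumulus cells it had 7, 6 and 8 reads in the WT libraries and 7, 43 and 51 reads in those labelled Sphk1/2gc-/-, which goes against the label in libraries 2 and 3. Sphk2 lay at 0.403 to 0.602 FPKM in WT and 0.434 to 0.752 FPKM in labelled Sphk1/2gc-/- cumulus cells, and at 5.18 to 5.86 and 4.51 to 6.29 FPKM in MGCs. The values are totals per gene and do not separate exons, so a deleted part of either gene cannot be seen on its own. It could lower the total, and the Sphk2 totals overlapped between the genotypes in both cell types. Every direction given below therefore rests on the genotype as labelled.

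Cell type labels met mixed evidence. Lhcgr, the LH receptor of mural cells, was at 210 to 565 FPKM in the MGC libraries and 1.93 to 18.7 FPKM in the cumulus libraries. Amh, in contrast, which is best known as higher in cumulus cells, was at 87.3 to 226 FPKM in the MGC libraries and 0.102 to 2.16 FPKM in the cumulus libraries, and Slc38a3, an amino acid carrier that oocytes induce in cumulus cells, lay at 13.9 to 41.6 and 0.341 to 3.23 FPKM. Oocyte transcripts were also in the MGC libraries, where the 9 markers summed to 29.8 to 118.6 FPKM against 2.32 to 7.80 FPKM in the cumulus libraries. MGC library 3 of both genotypes stood apart from its group, and values that moved with these libraries are given with and without them.

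Promoters of the 3 genes called with a rise of at least 2-fold in labelled Sphk1/2gc-/- cumulus cells are shown, chosen by that cutoff alone. They are the 250 bases before the RefSeq start site (GRCm38.p6), 5′ to 3′ on the gene's strand, with capitals on GGGCGG or its complement CCGCCC, on TGANTCA (the AP-1 motif) and on TGACG (the core of the cAMP response element).
Gfpt2, chr11:49793905-49794154, plus strand: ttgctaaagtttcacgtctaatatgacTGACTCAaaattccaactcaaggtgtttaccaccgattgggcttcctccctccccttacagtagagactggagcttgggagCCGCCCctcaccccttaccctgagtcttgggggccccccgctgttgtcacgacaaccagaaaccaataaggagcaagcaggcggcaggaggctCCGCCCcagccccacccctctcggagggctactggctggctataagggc
Uap1, chr1:170174965-170175214, minus strand: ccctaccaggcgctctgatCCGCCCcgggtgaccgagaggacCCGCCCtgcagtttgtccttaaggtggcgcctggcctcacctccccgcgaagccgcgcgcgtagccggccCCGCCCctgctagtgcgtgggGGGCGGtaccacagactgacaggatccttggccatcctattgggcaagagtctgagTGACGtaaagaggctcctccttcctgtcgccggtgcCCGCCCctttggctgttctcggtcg
Ugdh, chr5:65435843-65436092, minus strand: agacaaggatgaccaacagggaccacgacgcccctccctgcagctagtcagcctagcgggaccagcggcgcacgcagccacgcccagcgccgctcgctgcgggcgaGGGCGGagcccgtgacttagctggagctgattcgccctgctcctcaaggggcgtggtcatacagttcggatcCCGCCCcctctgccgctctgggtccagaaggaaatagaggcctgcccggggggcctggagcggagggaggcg
RefSeq windows were found for 8 of the 9 genes, 10 windows in all, as Ugp2 and Ogt have a pair of start sites each and Gnpnat1 had none. Both strands were searched. GGGCGG was in every one of the 10 windows, and in 32.7% of the 32851 mouse promoter windows of this length. TGANTCA was in the Gfpt2 window alone, at 223 bases before the start, and in 6.75% of all windows. TGACG was in the Uap1 window alone, at 61 bases before the start, and in 17.8% of all windows. The full 8-base cAMP response element TGACGTCA was in none of the 10 windows and in 1.55% of all. These matches are letters only and say nothing about binding.

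**Figure D1:**
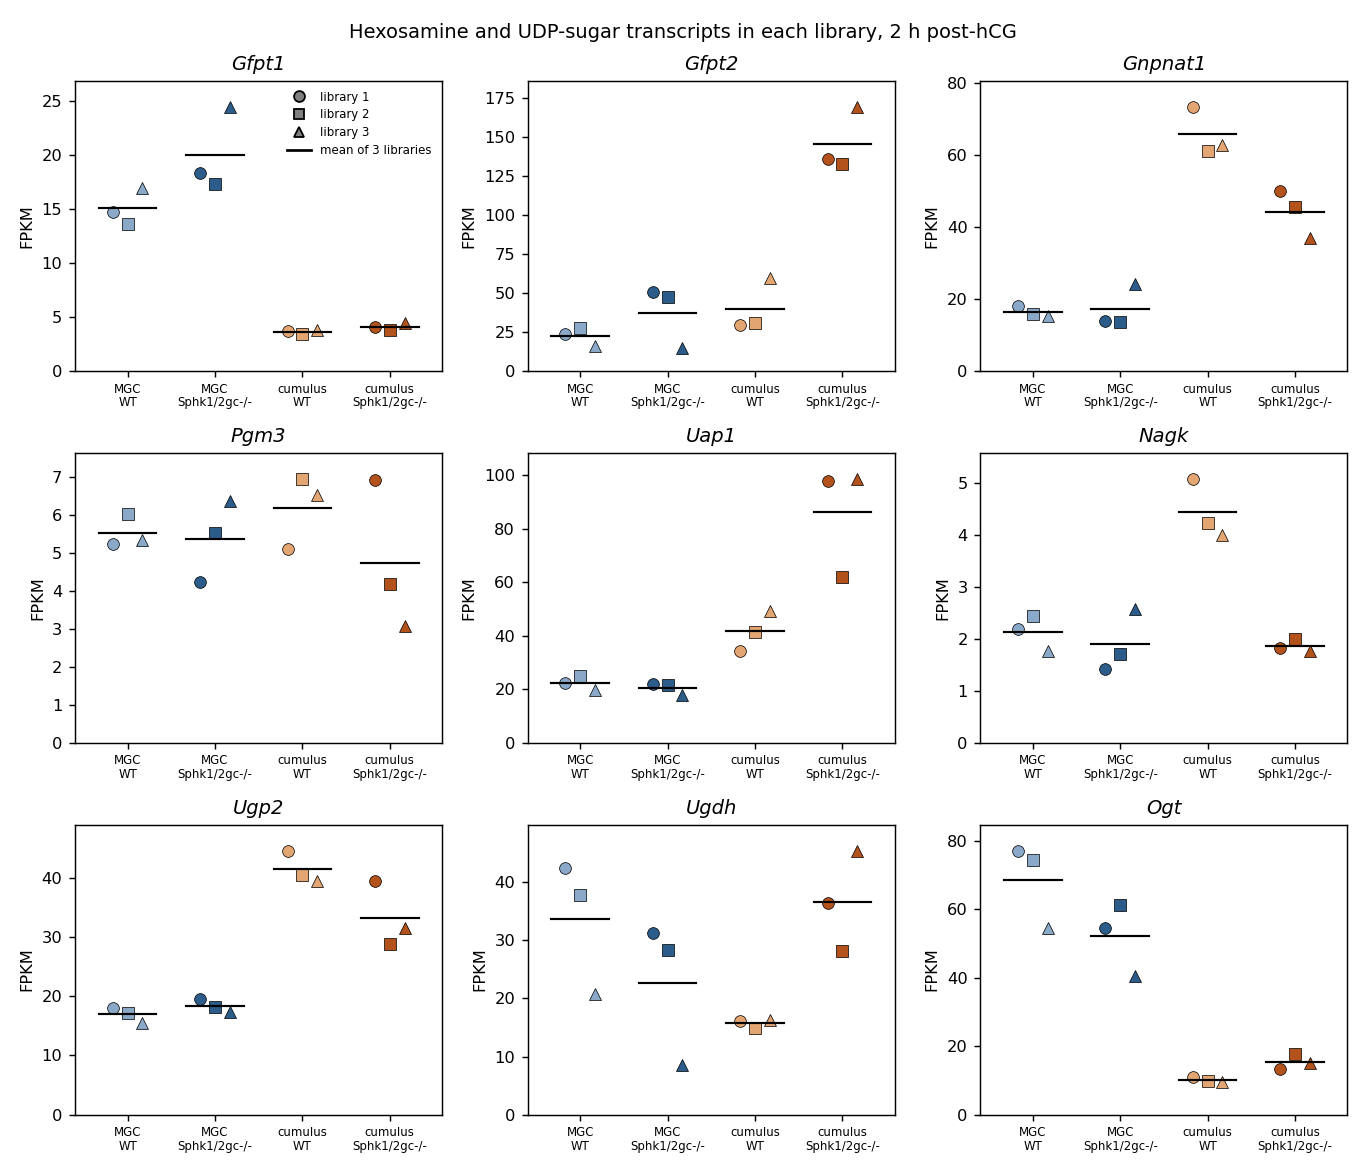
FPKM (linear axes from 0, own scale for each gene) of the 9 genes in the 12 libraries, by cell type and genotype label; circles, squares and triangles are libraries 1, 2 and 3, and lines are means of 3. In cumulus cells the genotypes do not overlap for Gfpt2, Uap1, Ugdh, Ogt, Nagk and Gnpnat1, and the triangles of the MGC groups lie apart from the other MGC libraries for Gfpt2 and Ugdh.

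In cumulus cells, the amination, nucleotide and glucuronic acid steps rose in the libraries labelled Sphk1/2gc-/-, together with Ogt, while the salvage kinase Nagk and the acetyltransferase Gnpnat1 fell. Of the 9 genes, 6 were called, 4 higher and 2 lower, beside 22.3% of the 12205 genes tested (9.66% higher and 12.7% lower). With a fold of at least 2 as well, 3 were called, all higher, beside 4.19% of all genes (8.04% in either direction). The 6 called genes did not overlap between the genotypes in any library, as was the case for 42.3% of the genes tested, and the same 6 had an unadjusted p under 0.05, beside 38.2%. The median log2 fold change of the 9 was 0.13 and that of all genes tested was −0.06. As the 9 were chosen with earlier results of these data known, these shares do not test the set.

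Gfpt2 (chromosome 11, 49794178 to 49838613 in GRCm38, 18 exon blocks), the inducible isozyme of the rate-limiting step, had 29.5, 30.7 and 59.6 FPKM in cumulus libraries 1 to 3 of WT, against 136, 133 and 169 FPKM in the labelled Sphk1/2gc-/- libraries. All 3 labelled knockouts lay above WT library 3, which stood well above its fellows. The means were 40.0 ± 17.0 and 146 ± 20.2 FPKM (SD, n = 3), and the log2 fold change was 1.91 with an SE of 0.27 (limma adjusted p = 0.00337). This was the largest change among the 9.

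Gfpt1 (chromosome 6), the constitutive isozyme, was low in cumulus cells, at 3.71, 3.43 and 3.82 FPKM in WT, against 4.05, 3.76 and 4.47 FPKM in the labelled Sphk1/2gc-/- libraries. The genotypes overlapped, and the log2 fold change was 0.13 (95% interval −0.19 to 0.44, limma adjusted p = 0.528), an interval that leaves out a change as large as that of Gfpt2. Gfpt2 made up 88.8% to 94.0% of the summed FPKM of both isozymes in WT cumulus cells and 97.1% to 97.4% in the labelled knockouts. The sum itself went from 43.6 ± 17.2 to 150.2 ± 20.5 FPKM (SD, n = 3).

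**Figure D2:**
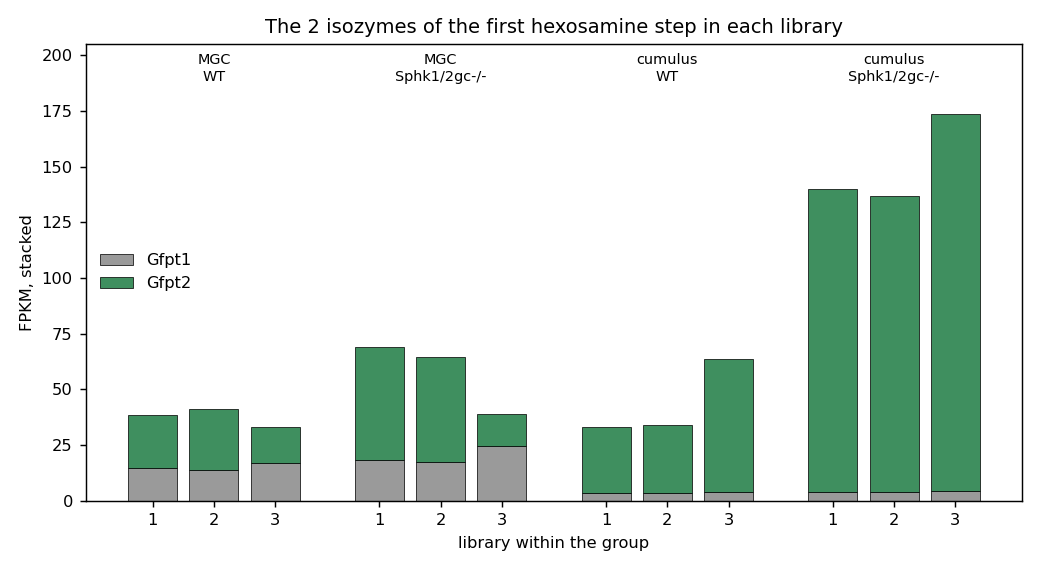
Stacked bars of Gfpt1 (grey) and Gfpt2 (green) in FPKM for each of the 12 libraries, from 0 on a linear axis. Gfpt1 is a thin base of 3.43 to 4.47 FPKM in all cumulus libraries and 13.6 to 24.4 FPKM in all MGC libraries, and the 3 tall bars of labelled Sphk1/2gc-/- cumulus cells are nearly all Gfpt2.

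Uap1 (chromosome 1, 170141938 to 170174957), which completes UDP-GlcNAc, was at 34.3, 41.6 and 49.2 FPKM in WT cumulus cells and at 98.02, 61.9 and 98.5 FPKM in those labelled Sphk1/2gc-/-. Library 2 of the latter was the lowest of them and still above every WT library. The log2 fold change was 1.01 (SE 0.225, limma adjusted p = 0.0162), and it missed the threshold without WT library 1 (adjusted p = 0.0674), WT library 2 (0.0564) or labelled knockout library 3 (0.0681).

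The steps between amination and nucleotide addition did not rise. Gnpnat1 (chromosome 14) went from 73.1, 61.2 and 62.8 FPKM to 49.9, 45.5 and 37.0 FPKM, with no overlap of the genotypes, and fell by 0.57 on the log2 scale (SE 0.166, limma adjusted p = 0.042). Its exons share 3878 of 4735 bases with Styx on the opposite strand, its values did not come out as whole reads, and no strand-specific counting is stated, so reads of both genes cannot be told apart. Styx itself was at 8.32, 11.1 and 8.81 FPKM in WT, against 14.0, 12.7 and 10.4 FPKM in labelled knockout cumulus cells. Gnpnat1 also has similar transcripts elsewhere. Gm14698 matched it over 552 bases at 99.8% identity (1.76 FPKM at most), and the pseudogene AC132351.1 over 556 bases at 98.6%. The Gnpnat1 call also ended without any 1 of 5 of the 6 libraries (highest adjusted p = 0.145) and is the least firm of the 6.

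Pgm3 (chromosome 9), the phosphate mutase, was at 5.09, 6.94 and 6.52 FPKM in WT, against 6.93, 4.17 and 3.08 FPKM in labelled Sphk1/2gc-/- cumulus cells. The labelled knockout libraries spread more widely than the WT libraries and overlapped them, with a log2 fold change of −0.37 (95% interval −0.94 to 0.19, limma adjusted p = 0.306). Without labelled knockout library 1 it was called at −0.64 (limma adjusted p = 0.036), and without labelled knockout library 3 it was −0.16 (0.695). Pgm3 shares 1270 of 4487 exon bases with Dop1a on the opposite strand, which was at 0.397 to 0.477 FPKM in these libraries.

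Nagk (chromosome 6), the salvage kinase, was at 5.07, 4.24 and 4.01 FPKM in WT cumulus cells and at 1.83, 1.99 and 1.77 FPKM in those labelled Sphk1/2gc-/-. Its 3 labelled knockout libraries lay close together and were all below the WT range. The log2 fold change was −0.92 (SE 0.142, limma adjusted p = 0.00464), while the group means of 4.44 ± 0.562 and 1.86 ± 0.114 FPKM (SD, n = 3) differ more than that scale shows.

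The glucuronic acid arm was split between its steps. Ugp2 (chromosome 11), which makes UDP-glucose for many routes, was at 44.6, 40.5 and 39.48 FPKM in WT, against 39.49, 28.8 and 31.6 FPKM in labelled Sphk1/2gc-/- cumulus cells. Its genotypes touched at the edge, with a log2 fold change of −0.32 (95% interval −0.69 to 0.05, limma adjusted p = 0.187), and it was called without labelled knockout library 1 (−0.45, 0.0381). Ugdh (chromosome 5, 65413221 to 65435949), which commits UDP-glucose to glucuronic acid, was in contrast at 16.2, 14.9 and 16.4 FPKM in WT, against 36.4, 28.2 and 45.4 FPKM in the labelled knockouts. No value overlapped, and the log2 fold change was 1.14 (SE 0.189, limma adjusted p = 0.00575).

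Ogt (X chromosome), the GlcNAc transferase of cytosolic and nuclear proteins, was at 10.9, 9.94 and 9.52 FPKM in WT, against 13.2, 17.7 and 15.0 FPKM in labelled Sphk1/2gc-/- cumulus cells. The genotypes did not overlap, the log2 fold change was 0.55 (SE 0.157) and the limma adjusted p was 0.0402. That call ended without WT library 1, 2 or 3 or labelled knockout library 2 or 3 (highest adjusted p = 0.135). Gfpt2, Nagk and Ugdh, in contrast, were called under every alternative that tested them.

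Cell type markers moved beside these genes in cumulus cells. Of 8 granulosa markers, 6 were lower in the labelled Sphk1/2gc-/- libraries and 0 were higher (the 2 not called were Inha and Amh, the latter at 0.102 to 2.16 FPKM), and their sum was 3783 to 4891 FPKM in WT and 2548 to 2904 FPKM in the labelled knockouts. The mural markers summed to 27.8 to 72.9 and 22.4 to 45.0 FPKM, with 2 of 3 tested lower, and the theca markers to 31.8 to 79.0 and 26.6 to 63.6 FPKM, with 2 of 6 lower. Star was the largest part of the theca sum in each library and was not called (limma adjusted p = 0.932). Leukocyte markers summed to 4.88 to 54.9 and 8.46 to 58.0 FPKM, with 1 of 5 higher and 1 lower. Cd74, an antigen presentation chaperone, was listed at 0 in all 3 WT and at 3.69, 1.54 and 5.69 FPKM in labelled knockout libraries 1 to 3. In the same order Lyz2 was at 35.6, 4.58 and 47.4 FPKM (1.01 to 34.7 FPKM in WT). Cd68 was at 2.53, 1.73 and 3.90 FPKM (0.692 to 2.63 FPKM in WT), and neither was called. S100a9 was the marker called lower, and S100a8 lay lower without a call. Ptprc stayed at 0.0377 FPKM or less, and Csf1r and Adgre1 at 0.416 and 0.353 FPKM or less, in all 6. Oocyte markers summed to 3.96 to 7.80 and 2.32 to 2.69 FPKM (1 of 4 lower), endothelial ones stayed under 1 FPKM in sum, and the oocyte-driven cumulus markers summed to 622 to 772 and 347 to 597 FPKM (1 of 6 higher, 0 lower). The part of these markers in the changes of the 9 genes was not tested.

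In MGCs, the same 9 genes gave no call over all 6 libraries. None of the 9 passed limma's adjusted threshold, and 0 had an unadjusted p under 0.05, beside 0.0393% of 15279 genes called and 9.2% with an unadjusted p under 0.05. Library 3 of the group labelled Sphk1/2gc-/- was below its fellows for Gfpt2, Ugdh, Ogt, Uap1 and Ugp2 and above them for Gfpt1, Gnpnat1, Pgm3 and Nagk.

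Gfpt2 had 23.8, 27.6 and 16.2 FPKM in the WT libraries of MGCs, against 50.4, 47.4 and 14.6 FPKM in those labelled Sphk1/2gc-/-. Labelled knockout libraries 1 and 2 were the highest of the 6 and library 3 was the lowest. The log2 fold change was 0.56 (SE 0.47, limma adjusted p = 0.761) over all 6 libraries and 0.91 (SE 0.09, limma adjusted p = 0.00916) with both library 3 left out. Its share of both isozymes was 48.9% to 67.0% in WT and 73.3%, 73.2% and 37.5% in the labelled knockouts.

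Gfpt1 was at 14.7, 13.6 and 16.9 FPKM in WT, against 18.4, 17.3 and 24.4 FPKM in labelled Sphk1/2gc-/- MGCs. It was the only 1 of the 9 whose MGC genotypes did not overlap, as was the case for 16.9% of the genes tested. With same-numbered libraries as a block, its limma adjusted p was 0.408. Its log2 fold change was 0.38 (SE 0.167, limma adjusted p = 0.560), and 0.31 with both library 3 left out (limma adjusted p = 0.0527).

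Ugdh was at 42.5, 37.8 and 20.8 FPKM in WT, against 31.3, 28.3 and 8.49 FPKM in labelled Sphk1/2gc-/- MGCs. Library 3 was the lowest of each genotype, and the limma adjusted p was 0.354 with same-numbered libraries as a block. The log2 fold change was −0.68 (SE 0.504, limma adjusted p = 0.739) over 6 libraries and −0.42 (SE 0.088, limma adjusted p = 0.0433) over libraries 1 and 2. The 95% interval over 6 libraries, −1.87 to 0.52, holds both directions. In cumulus cells Ugdh was higher in the labelled knockouts.

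Ogt behaved alike, at 77.1, 74.6 and 54.5 FPKM in WT, against 54.7, 61.4 and 40.6 FPKM in labelled Sphk1/2gc-/- MGCs. The genotypes overlapped only through WT library 3, and the limma adjusted p was 0.355 with same-numbered libraries as a block. The log2 fold change was −0.39 (SE 0.205, limma adjusted p = 0.618) over 6 libraries and −0.38 (SE 0.075, limma adjusted p = 0.0371) over libraries 1 and 2. With both library 3 left out, 3 of the 9 genes were thus called, beside 16.1% of 15433 genes, and 6 had an unadjusted p under 0.05, beside 35.8%.

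The other members in MGCs overlapped between the genotypes. Uap1 was at 22.3, 25.0 and 19.8 FPKM in WT, against 22.0, 21.7 and 17.7 FPKM in labelled Sphk1/2gc-/- MGCs, a log2 fold change of −0.12 with a 95% interval of −0.47 to 0.23. Ugp2 was at 15.5 to 18.1 and 17.3 to 19.5 FPKM, Pgm3 at 5.23 to 6.03 and 4.23 to 6.37 FPKM, Nagk at 1.76 to 2.45 and 1.41 to 2.57 FPKM, and Gnpnat1 at 15.4 to 18.0 and 13.7 to 24.1 FPKM. Their log2 fold changes were between −0.13 (Nagk) and 0.11 (Ugp2), and the sign for Gnpnat1 and Pgm3 turned when single libraries were left out. With both library 3 left out, Nagk was at −0.37 (limma adjusted p = 0.107) and Gnpnat1 at −0.27 (limma adjusted p = 0.0955).

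Markers of other cells varied between the MGC libraries too. Theca markers summed to 797 to 1222 FPKM in WT and to 598, 549 and 162 FPKM in labelled Sphk1/2gc-/- libraries 1 to 3, and leukocyte markers to 165 to 312 FPKM and to 179, 222 and 27.0 FPKM. Granulosa markers summed to 8863 to 15079 and 11014 to 12607 FPKM, mural ones to 531 to 1168 and 385 to 494 FPKM, endothelial ones to 12.8 to 16.6 and 7.94 to 9.74 FPKM, oocyte ones to 40.8 to 102 and 29.8 to 118.6 FPKM and the oocyte-driven cumulus markers to 363 to 435 and 324 to 524 FPKM. None of these markers was called over 6 libraries, where 0.0393% of all genes were called. With both library 3 left out, 16.1% of all genes were called. Of 7 theca markers 1 was then higher and 2 lower, and of 9 leukocyte markers 2 were higher and 3 lower. Granulosa and mural markers had 1 higher and 1 lower each, endothelial and oocyte-driven cumulus markers 1 lower each, and oocyte markers 0 calls. The part of these markers in the values of the 9 genes was not tested.

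**Figure D3:**
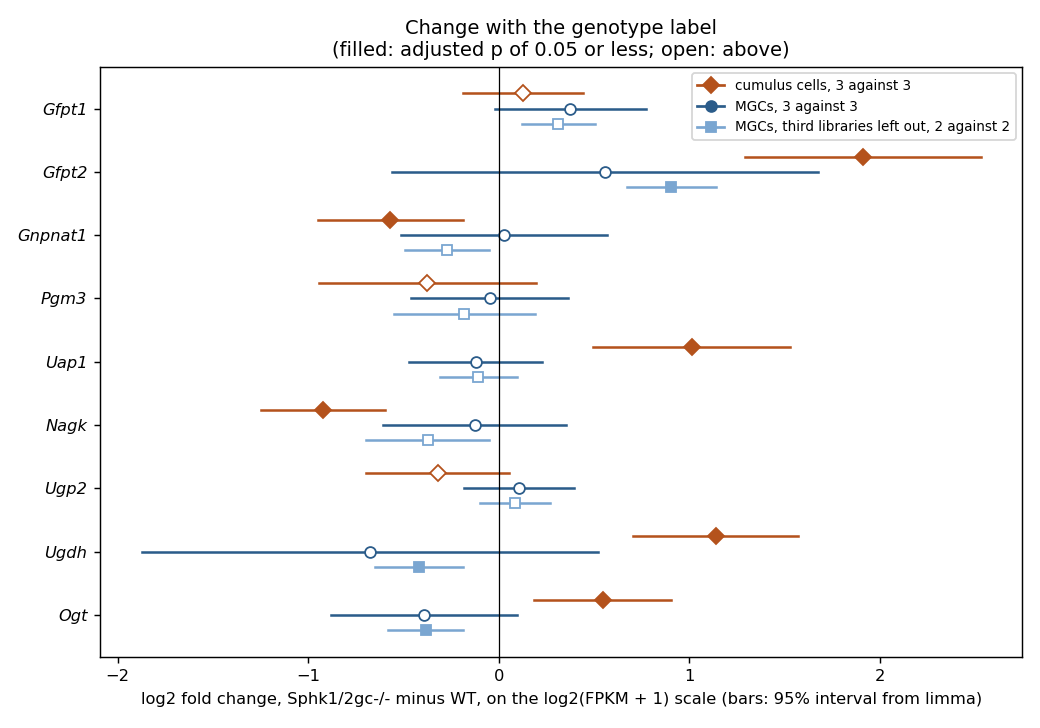
Log2 fold change (labelled Sphk1/2gc-/- minus WT, log2(FPKM + 1) scale) with 95% intervals from limma for the 9 genes in cumulus cells (diamonds), in MGCs (circles) and in MGCs with both library 3 left out (squares); filled marks are called. Gfpt2 has the largest value in cumulus cells, 1.91, and the filled squares of Ugdh and Ogt lie left of 0 while their diamonds lie right of it.

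Whether the genotype effect differed between the cell types was tested as an interaction over all 12 libraries. The labels do not say whether MGC and cumulus libraries of the same number came from the same mice. The main fit took all 12 as independent, also for the comparisons of cell types below. Uap1 was the only 1 of the 9 called, beside 3.93% of 15869 genes: its rise in cumulus cells exceeded its change in MGCs by 1.13 on the log2 scale (SE 0.282, limma adjusted p = 0.0471), with adjusted p between 0.0333 and 0.126 over the alternatives. With same-numbered libraries as a block the call ended (limma adjusted p = 0.0811). Differences of similar or larger size missed the threshold, at 1.82 for Ugdh (SE 0.573, limma adjusted p = 0.0932) and 1.35 for Gfpt2 (SE 0.585, limma adjusted p = 0.204). Ogt differed by 0.94 (limma adjusted p = 0.0661) and Nagk by −0.79 (limma adjusted p = 0.0788). With both MGC library 3 left out, Ugdh (1.56, limma adjusted p = 0.00608), Ogt (0.93, 0.0145) and Uap1 (1.12, 0.0416) were called, beside 15.5% of 15973 genes, and Gfpt2 was not (1.00, 0.113).

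Cumulus cells and MGCs were then compared within each genotype label. The cumulus libraries listed fewer genes at 1 FPKM or more (9353 to 9588) than the MGC libraries (11640 to 12653), and the median log2 difference of all genes was −0.54 in WT and −0.51 in the labelled knockouts, so values near these medians are the general level. Whether both tables were scaled together is not stated. In WT, 7 of the 9 genes were called, beside 76.6% of 15869 genes, and in the labelled knockouts 6 of 9, beside 73.4%. Both counts are near their background and are no result about the 9.

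The order of levels differed between the cell types. Among WT MGCs, Ogt was the highest at 68.7 ± 12.4 FPKM, apart from all others, followed by Ugdh, Gfpt2 and Uap1 (33.7, 22.5 and 22.4 FPKM, overlapping in that order), then Ugp2, Gnpnat1 and Gfpt1 (17.0, 16.4 and 15.1 FPKM, overlapping), Pgm3 (5.53 FPKM) and Nagk (2.13 FPKM). WT cumulus cells had Gnpnat1 on top at 61.2 to 73.1 FPKM (mean 65.7), then Uap1, Ugp2 and Gfpt2 (41.7, 41.5 and 40.0 FPKM, not separable), Ugdh (15.8), Ogt (10.1), Pgm3 (6.19), Nagk (4.44) and Gfpt1 (3.65). The place of Gnpnat1 carries the limits above, its exon overlap with Styx, its similar transcripts and values that did not come out as whole reads. The order in labelled Sphk1/2gc-/- cumulus cells started with Gfpt2 (146 ± 20.2 FPKM) and Uap1 (mean 86.2 FPKM), each apart from the next, followed by Gnpnat1, Ugdh and Ugp2 (44.1, 36.7 and 33.3 FPKM, overlapping), Ogt (15.3), then Pgm3 and Gfpt1 (4.73 and 4.09 FPKM, overlapping) and Nagk (1.86). In labelled Sphk1/2gc-/- MGCs all neighbours from Ogt (52.2 ± 10.6) down to Gnpnat1 (17.3 ± 5.96) overlapped.

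Ogt and Gfpt1 were lower in cumulus cells under both labels, by more than the general level. The log2 difference of Ogt was −2.63 in WT (SE 0.184, limma adjusted p = 9.84e-08) and −1.69 in the labelled knockouts (limma adjusted p = 5.03e-06), and that of Gfpt1 was −1.78 and −2.03 (limma adjusted p = 4.52e-07 and 1.75e-07). Gnpnat1 and Ugp2 were higher, with log2 differences of 1.94 and 1.34 (limma adjusted p = 3.05e-06 and 7.92e-05) and of 1.25 and 0.82 (limma adjusted p = 5.08e-06 and 0.000194).

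Uap1 was also higher in cumulus cells, by 0.86 in WT (limma adjusted p = 0.00185) and by 1.99 in the labelled knockouts (limma adjusted p = 2.43e-06). The difference for Gfpt2 was 2.11 in the labelled knockouts (limma adjusted p = 0.000628) and 0.76 in WT (limma adjusted p = 0.113), and the interaction above was not called. The WT value ran from 0.44 to 0.93 with 1 library left out and was called in 2 of 20 alternatives, and with both MGC library 3 left out the values were 1.55 (limma adjusted p = 0.000607) and 0.55 (0.0919). Nagk was at 0.80 in WT (limma adjusted p = 0.000898) and 0.00 in the labelled knockouts (limma adjusted p = 0.996), with the interaction not called either.

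Ugdh was lower in WT cumulus cells than in WT MGCs (−0.98, limma adjusted p = 0.0425), and −1.29 with both MGC library 3 left out (limma adjusted p = 0.000111). The call held in 12 of 20 alternatives. It ended under the median-of-ratios scaling (−0.27, 0.572), with no filter (0.0713), and without WT MGC library 1 or 2, any 1 WT cumulus library or labelled knockout cumulus library 1 (highest adjusted p = 0.139). In the labelled knockouts Ugdh was at 0.83 (limma adjusted p = 0.0820), at 0.27 to 1.15 with 1 library left out, and called in 3 of 20 alternatives. The lowest value, 0.27, was without MGC library 3 (limma adjusted p = 0.393), and the value was called without MGC library 1 (1.15, 0.0289) or 2 (1.08, 0.0474). Pgm3 was at 0.13 and −0.20 (limma adjusted p = 0.609 and 0.448), and the latter turned to 0.42 under that scaling.

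**Figure D4:**
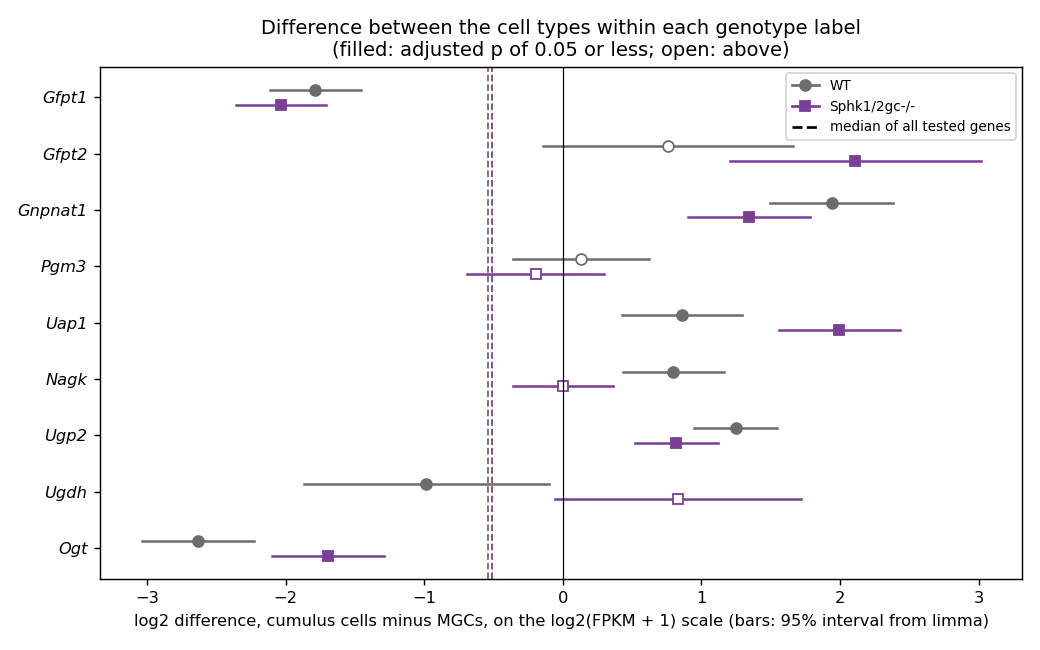
Log2 difference between cumulus cells and MGCs (log2(FPKM + 1) scale) with 95% intervals from limma for the 9 genes, in WT (grey circles) and in the libraries labelled Sphk1/2gc-/- (purple squares); dashed lines are the medians of all tested genes, −0.54 and −0.51. Ogt and Gfpt1 lie left of the dashed lines under both labels, and Gfpt2 and Uap1 lie further right in the labelled knockouts than in WT.

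Of the 9 genes, Ogt varied most over the 12 libraries (SD 1.17 on the log2 scale), just ahead of Gfpt2 (1.17), and Pgm3 varied least (0.29). The 5 transcripts with the most similar centred profile to Ogt, among 6718 with a mean of at least 5 FPKM, were Trio, Epb41l4aos, Pnrc1, Gpbp1l1 and Itpr1, with a mean absolute difference of 0.15 to 0.17 log2 units over 12 libraries against a mean absolute deviation of 1.08 for Ogt itself. Their likeness mainly shows the lower level of all 6 transcripts in cumulus libraries, where Trio was at 0.981 to 1.82 FPKM against 8.64 to 12.2 FPKM in the MGC libraries.

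Genes that feed the route were next considered in cumulus cells. This list and those below were also chosen with earlier results known, so their shares do not test them. Of 7 tested genes for hexose and glutamine entry, 3 were higher in the labelled Sphk1/2gc-/- libraries, 0 lower and 4 not called, with a list median of 0.34, beside 9.66% higher and 12.7% lower over all genes. Glul, which makes the glutamine that the GFPT enzymes consume, was at 2.45, 2.41 and 3.24 FPKM in WT, against 10.4, 11.2 and 11.7 FPKM in the labelled knockouts (log2 fold change 1.72, limma adjusted p = 0.000684). The glucose transporter Slc2a1 was at 11.4, 10.9 and 16.7 and at 37.6, 28.2 and 50.2 FPKM (1.49, limma adjusted p = 0.00552). Hexokinase Hk2 was at 3.84, 5.601 and 6.78 and at 19.4, 15.4 and 15.2 FPKM (1.48, limma adjusted p = 0.00312). None of these genes overlapped between the genotypes, whereas in MGCs 0 of the 10 tested were called over 6 libraries (3 higher and 1 lower with both library 3 left out, beside 16.1% of all genes called). The interaction was called for Slc2a1 (1.57, limma adjusted p = 0.0394) and Hk2 (1.25, limma adjusted p = 0.0232) and not for Glul (1.48, limma adjusted p = 0.1496).

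Side steps moved both ways. Of 17 tested genes of hexosamine side steps and UDP-sugar interconversion, 2 were higher, 5 lower and 10 not called in cumulus cells, with a list median of 0.00, against the same 9.66% higher and 12.7% lower over all genes. As named in GENCODE M21, Pgm2, a phosphoglucomutase, rose from 10.3, 15.0 and 18.4 FPKM to 46.8, 32.6 and 44.5 FPKM (1.46, limma adjusted p = 0.00516). Pgm1, another of that family under the same naming, fell from 20.8, 24.1 and 21.6 FPKM to 12.1, 4.66 and 7.78 FPKM (−1.42, limma adjusted p = 0.0106). Which of them carries more of the activity was not tested. Gnpda2, which returns glucosamine-6-phosphate to fructose-6-phosphate, fell by 0.86 on the log2 scale (limma adjusted p = 0.00975). In MGCs 0 of 17 were called over all 6 libraries (1 higher and 5 lower with both library 3 left out, where 16.1% of all genes were called).

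Has2, the main hyaluronan synthase of cumulus expansion, was at 59.8, 31.9 and 74.6 FPKM in WT and at 62.0, 88.3 and 89.6 FPKM in labelled Sphk1/2gc-/- cumulus cells, with overlap, and its log2 fold change was 0.58 (SE 0.307, limma adjusted p = 0.199). In MGCs it was at 12.7 to 18.3 FPKM in WT and at 25.8, 25.0 and 10.1 FPKM in the labelled knockouts (0.30, limma adjusted p = 0.846; 0.85, 0.0106 with both library 3 left out). Of the 6 tested genes of hyaluronan synthesis and matrix, 4 were higher and 1 lower in cumulus cells (9.66% and 12.7% over all genes), led by the hyaluronan receptor Cd44 (0.222 to 0.348 FPKM in WT and 4.71 to 7.13 FPKM in the labelled knockouts, 2.32, limma adjusted p = 0.00035), with Has1 (1.93, limma adjusted p = 0.0107) and the matrix protein Ptx3 (1.73, limma adjusted p = 0.00838). The list's median was 1.66, beside −0.06 for all genes, and in MGCs 0 of 7 were called over 6 libraries (4 higher with both library 3 left out, against 16.1% of all genes called).

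Users and carriers of UDP-sugars were also read in cumulus cells, where 22.3% of all genes were called. None of 7 tested Golgi and endoplasmic reticulum carriers passed limma's adjusted threshold (1 had an unadjusted p under 0.05). Of 10 tested genes of the first N-glycan steps, 2 were lower and 0 higher: Mgat4b (−1.19, limma adjusted p = 0.00688) and Alg1 (−0.80, limma adjusted p = 0.0437). Of 12 chondroitin and heparan chain enzymes, the chondroitin synthase Chsy1 was higher (0.97, limma adjusted p = 0.00608) and the heparan enzymes Ext1 (−1.03, limma adjusted p = 0.00675) and Extl2 (−0.72, limma adjusted p = 0.0275) were lower. Of 5 hyaluronan breakdown genes, Hexa was higher (0.75, limma adjusted p = 0.0440).

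Over 6 libraries, MGCs had 1 call among all these lists. Cemip, a hyaluronan-binding protein that takes part in its breakdown, was at 4.45, 3.11 and 4.90 FPKM in WT and at 0.193, 0.174 and 0.0588 FPKM in labelled Sphk1/2gc-/- MGCs (−2.16, limma adjusted p = 0.0413). The genotypes lay far apart in every library, library 3 included. In cumulus cells it was at 0.0254 FPKM or less in all 6 libraries.

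**Figure D5:**
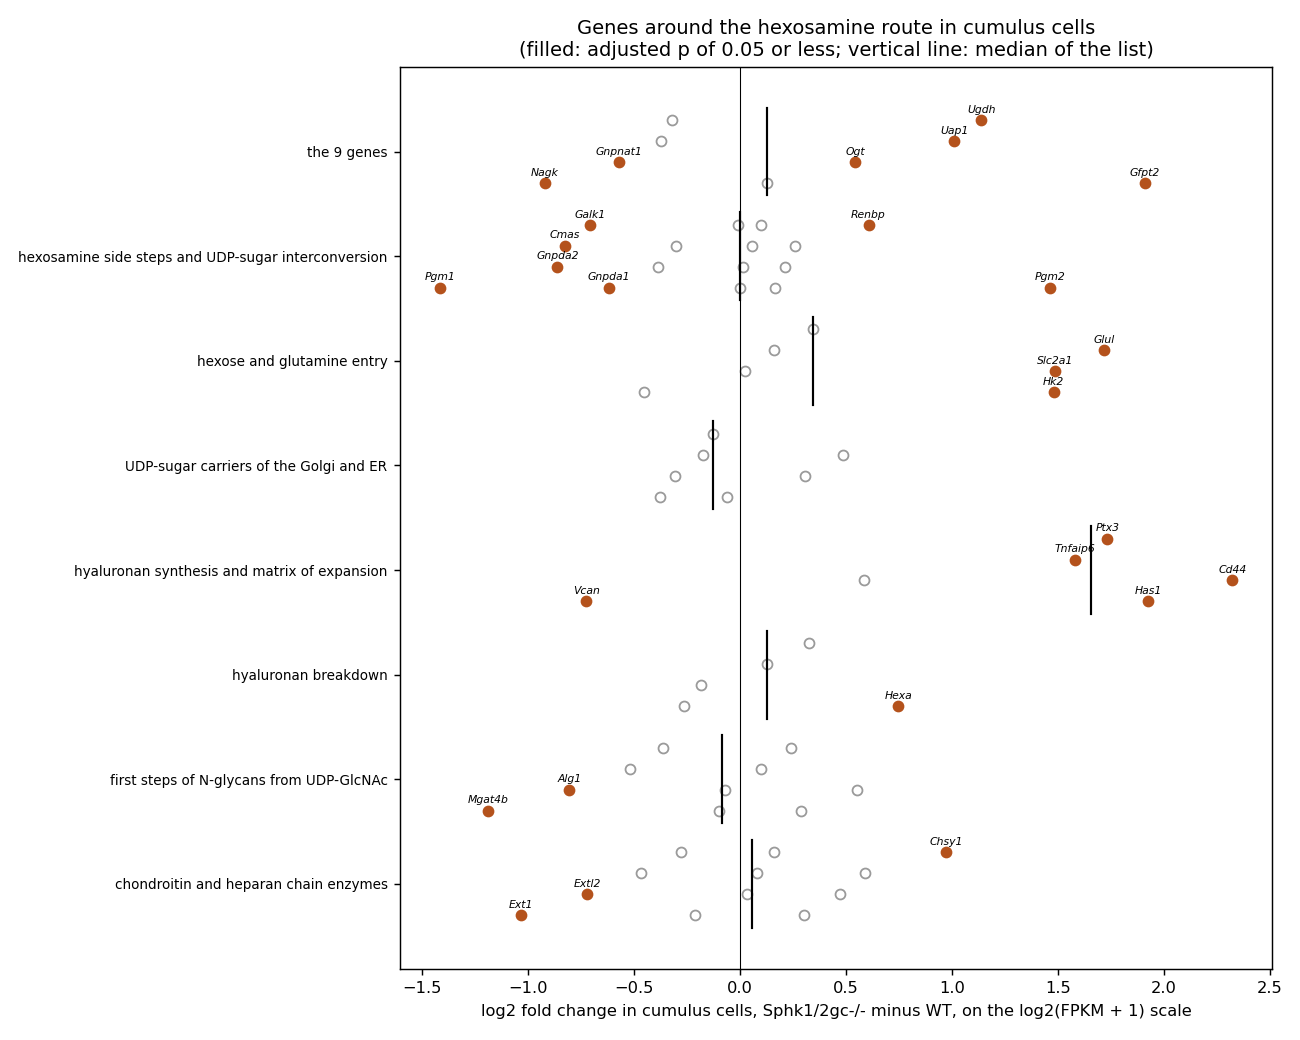
Log2 fold change in cumulus cells (labelled Sphk1/2gc-/- minus WT, log2(FPKM + 1) scale) of each tested gene of the 9 and of 7 surrounding lists, 1 row a list; filled points with names are called, open ones are not, and vertical lines are list medians. The entry genes Glul, Slc2a1 and Hk2 lie between 1.48 and 1.72, beyond Uap1 (1.01) and Ugdh (1.14) and short of Gfpt2 (1.91), and the row of carriers holds open points only.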

How the data were processed

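Bulk RNA-seq of 12 libraries was analysed, 3 for each of WT and Sphk1/2gc-/- MGCs and cumulus cells, grouped by GEO's labels. The authors deposited FPKM in 1 table per cell type (29101 genes for MGCs, 33137 for cumulus cells), with replicates kept apart and 0 columns left unused here. HISAT2 and GRCm38 are named in the submitters' processing notes, and the counting tool is not given in the sources used here. Libraries were made from total RNA with an NEBNext Ultra kit, which does not mark strand as far as stated. Genes were named and placed with GENCODE M21, which lacks 64 and 66 of the listed genes. FPKM multiplied by its exon length fell on whole reads (within 0.02) for 90.6% to 92.1% of nonzero values per library, which gave the totals of 16100365 to 19761605 reads. That 1 exon length served both tables for 99.8% of 15965 genes compared is the ground for tests across tables. Whether the tables were scaled together is not stated, so levels set across them carry that limit.

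The values were tested with limma 3.58.1 (R 4.3.3, variance trend) on log2(FPKM + 1) where a gene's mean reached 0.5 FPKM in any group compared, with Benjamini-Hochberg adjustment over all genes tested. Genotypes were compared within each cell type, cell types within each genotype, and the genotype effects by interaction. The code was tested on simulated data. Exon overlaps were found with bedtools 2.31.1 and similar transcripts with BLAST 2.17.0 (at least 200 bases at 90% identity). Alternatives were a pseudocount of 0.1, no filter, a filter of 5 FPKM, median-of-ratios scaling, libraries of the same number as a block, no variance trend, limma-voom on recovered reads, each library left out, and both MGC library 3 left out.

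The deviations of same-numbered libraries from their group means correlated at −0.148, −0.0511 and 0.115 in cumulus cells and of 0.220, 0.158 and 0.224 in MGCs. Each MGC value is above 0.1, so MGC libraries may be paired by number. The main fits left this pairing out, and all MGC values not named as blocked come from unpaired fits. The block was an alternative, and the blocked value is given where it changes a call. The 9 genes and the lists were chosen with earlier results of these data known, so no p is given for a list. Named besides the 9 are Sphk1, Sphk2, Has2, markers and at most 3 called genes with the largest changes for each list and comparison. Styx and Dop1a were named after their overlap was found, and Gm14698 and AC132351.1 after the search for similar transcripts.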

Additional observations from a re-analysis of the deposited data

Results flagged for a closer look

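The genotype effect on Uap1 passed the test of a difference between the cell types without a replicate block and missed it with the block (limma adjusted p = 0.0811). It was 1.01 on the log2 scale in cumulus cells and −0.12 in MGCs, a difference of 1.13 (SE 0.282, limma adjusted p = 0.0471 for the interaction), and the 3 labelled Sphk1/2gc-/- cumulus libraries were above the 3 WT ones while the MGC genotypes overlapped. Over the alternatives the adjusted p was 0.0333 to 0.126, past the threshold in 7 of 20.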

How the results depend on the processing

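Of the 9 genes in cumulus cells, 6 were called (knockout against WT) and 3 without a filter on low values, with 3 to 8 over the fits that left out 1 library each; Gfpt2, Nagk and Ugdh were among the calls of every alternative that tested them. The replicate block lowered that count to 4, with Gnpnat1 (adjusted p = 0.0655) and Ogt (0.0852) lost. Whether same-numbered cumulus libraries belong together is not stated, and their deviations correlated at −0.148, −0.0511 and 0.115. For MGCs the count was 0, also under the replicate block and in each fit with 1 library left out, and 3 with both MGC library 3 left out. For the interaction it was 1, and it was 0 with a pseudocount of 0.1, no filter, the replicate block (Uap1 1.13, adjusted p = 0.0811) or voom on recovered reads, 2 with median-of-ratios scaling, 3 with both MGC library 3 left out and 0 to 2 with 1 library left out. Counts between cell types were 6 to 8 (WT, main 7) and 6 to 7 (labelled knockouts, main 6) with 1 library left out.

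Signs turned only for Gnpnat1, Pgm3 and Nagk, in comparisons where the main fit did not call them. In MGCs Gnpnat1 went from 0.03 to −0.27 with both library 3 left out and to between −0.23 and 0.16 with 1 library left out, and Pgm3 from −0.05 to between −0.16 and 0.087. Between cell types in the labelled knockouts, Pgm3 went from −0.20 to 0.42 with median-of-ratios scaling and to between −0.46 and 0.022 without 1 library, and Nagk from 0.00 to −0.030 with voom and to between −0.12 and 0.16 without 1 library. In that comparison the scaling moved the median of all genes from −0.51 to −0.14. The cause was not tested. The filter of 5 FPKM left no value for Nagk, whose mean is below it. With 3 libraries a group, precision was limited: the 95% interval of Ugdh in MGCs, for example, ran from −1.87 to 0.52.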
